A study of Mus musculus with 1 sample.

Results

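The genes described here are 43 messages that rise when a cell copies its DNA or divides, out of 22631 rows in the deposited count table. They were taken by name, as 25 genes of G2 phase and mitosis (G2/M genes) and 18 genes of S phase (S genes), and all 43 were in the table. The library was the control of a study that deleted *Nr5a1* in Sertoli cells (SCs), the supporting cells of the seminiferous cords. Its label gives the genotype as WT and embryonic day 14.5, whereas the methods describe the controls as *Nr5a1* L2/L2 fetuses, which carry a *loxP*-flanked *Nr5a1* on both chromosomes and no Cre transgene, on a mixed C57BL/6 and 129/SvPass background, and name an earlier day as well. Cells of 12 testes were dissociated with trypsin, pooled and captured as 1 library with the 10x Genomics Chromium 3′ chemistry, which counts each captured message once through a unique molecular index (UMI). With 1 library there were no biological replicates, so no test was made, and every interval given is a 95% interval for counting error only (exact Poisson for UMIs, exact binomial for cells). The mutant library was not used here.

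As background, a dividing cell passes through G1, S, G2 and mitosis. S genes build and fire replication origins and supply nucleotides, and many are switched on by E2F factors as the cell leaves G1. G2/M genes encode the cyclin B kinase, the spindle, the kinetochores and the checkpoint that holds chromosomes until all are attached, and the DREAM and MYB-MuvB complexes keep them off in resting cells and turn them on before mitosis. In the fetal testis, SCs and most interstitial cells are known to divide, fetal Leydig cells (LCs) are regarded as differentiated cells that seldom do, and germ cells leave the cell cycle around this age and stay arrested until after birth. Messages alone do not show that a cell divides.

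The table held 72595083 UMIs in 5421 barcodes. After filters, 3813 cells remained, with a median of 12032 UMIs and between 2260 and 53807. They were clustered without the cell cycle genes among the variable genes, and clusters were named from markers of other functions. The main classes were 855 Sertoli-like, 252 germ-like, 283 Leydig-like, 1391 interstitial-like, 517 peritubular myoid (PTM)-like and 156 coelomic epithelium-like cells, each with at least 5 of its markers in 10% or more of its cells, and 147 cells were left unnamed. The size of the germ-like class depended on the outlier filter, set at 3 median absolute deviations. It held 377 cells with a filter at 5 and 290 cells without one. Germ-like cells were the deepest, with a median of 35959 UMIs against 14316 in Sertoli-like and 9351 in interstitial-like cells. Cells were therefore thinned to 5000 UMIs before genes were counted per cell, and shallower cells were left out (14 Sertoli-like, 6 germ-like, 3 Leydig-like, 68 interstitial-like, 13 PTM-like and 7 coelomic epithelium-like cells). The SC hormone message *Amh* was seen at that depth in 98.7% of Sertoli-like cells and in 1.34% to 4.38% of the other 5 classes. *Ptgds*, another SC message, was seen in 3.36% to 6.5% of the classes other than Sertoli-like, and *Cyp11a1*, an LC enzyme of steroid synthesis, in 2.69% to 6.12% of those other than Leydig-like. Shares of this size can come from free RNA, whose part was not tested. Levels are the UMIs of a gene summed over a class, per 1000000 UMIs of that class (CPM).

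The classes differed in how many G2/M genes were seen in 1 cell. In Sertoli-like cells the counts peaked at none and 1 of the 25 genes. They fell to 7 cells at 8 and at 9 genes, rose again to 25 cells at 16 genes and ended at 23 genes. Among Sertoli-like cells, 210 of 841 cells (24.97%, 22.1 to 28.04%) had none, and 204 of 841 cells (24.3%, 21.4 to 27.3%) had 10 or more. Interstitial-like cells were alike, with 379 of 1323 cells (28.6%, 26.2 to 31.2%) without any and 318 of 1323 cells (24.04%, 21.8 to 26.4%) with 10 or more. Leydig-like cells were emptier, with 151 of 280 cells (53.9%, 47.9 to 59.9%) holding none.

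Germ-like cells had another shape. None of the 246 germ-like cells was without a G2/M gene, which allows a share of up to 1.49% (upper exact limit), and none held only 1. They had a single peak at 6 genes and a median of 7, with 4 at the 10th and 12 at the 90th percentile, where Sertoli-like cells had a median of 1 and a 90th percentile of 16. The share of cells with 10 or more G2/M genes was 19.5% (14.8 to 25.02%) in germ-like cells and 24.3% (21.4 to 27.3%) in Sertoli-like cells, with intervals that overlap.

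**Figure D1:**
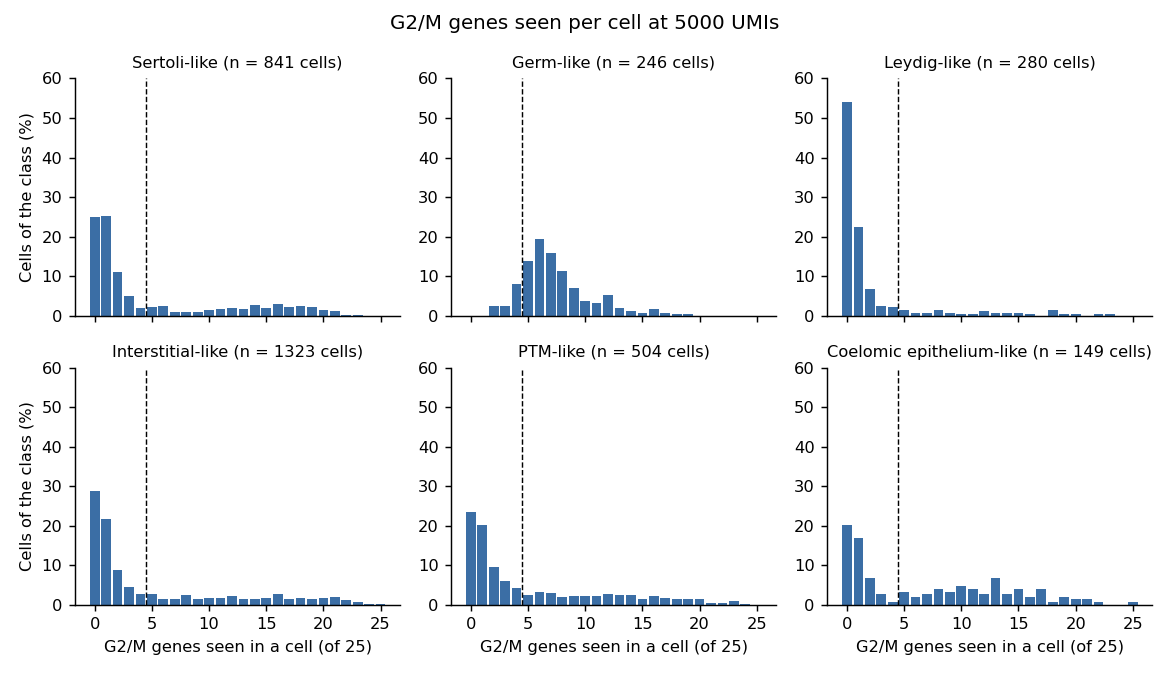
Share of cells of each class (y axis, %) by the number of the 25 G2/M genes with at least 1 UMI in a cell thinned to 5000 UMIs (x axis). The dashed line marks the limit of 5 genes for a G2/M-high cell. Sertoli-like cells peak at 0 and 1 gene with a second, lower rise beyond 10, Leydig-like cells at 0, and the 246 germ-like cells form 1 peak at 6.

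A cell with at least 5 of the 25 G2/M genes was called G2/M-high, and a cell with at least 5 of the 18 S genes S-high. By this limit, 214 of 246 germ-like cells (86.99%, 82.1 to 90.9%) and 265 of 841 Sertoli-like cells (31.5%, 28.4 to 34.8%) were G2/M-high, a difference of 55.5 points (49.6 to 60.5). The difference moved with the limit. It was 59.0 points with a limit of 3 genes, 11.9 with 8 and -4.74 (-10.4 to 1.47) with 10, and 24.4 at 3000 UMIs per cell. Of the germ-like cells, 21.9% (16.9 to 27.6%) held 4 or 5 genes, against 4.16% (2.92 to 5.74%) of Sertoli-like cells. Before thinning, 98.8% of germ-like and 42.3% of Sertoli-like cells were G2/M-high.

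With clusters named as above, fewer Leydig-like than interstitial-like cells passed either limit. G2/M-high were 34 of 280 Leydig-like cells (12.1%, 8.56 to 16.6%) and 447 of 1323 interstitial-like cells (33.8%, 31.2 to 36.4%), a difference of -21.6 points (-26.1 to -16.6). S-high were 44 of 280 Leydig-like cells (15.7%, 11.7 to 20.5%) and 571 of 1323 interstitial-like cells (43.2%, 40.5 to 45.9%), a difference of -27.4 points (-32.3 to -21.9). Before thinning the values were 17.3% and 38.7% for G2/M and 51.6% and 60.2% for S. Since dividing cells can be clustered together whatever their type, the 2 interstitial-like clusters made almost wholly of G2/M-high cells were looked at again with each cell classed from its own markers. Of their 231 and 156 cells, 1 and 0 were Leydig by that rule, 133 and 103 were interstitial and 60 and 35 were unnamed. PTM cells were 18 and 5, and perivascular cells 10 and 7. Classed in that way throughout, 9.01% of Leydig-like and 33.3% of interstitial-like cells were G2/M-high. With clusters named from summed marker CPM, which left both of these clusters unnamed, the G2/M-high difference turned to 3.3 points (-0.799 to 8.04) and the S-high difference was -21.5 points.

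Between Sertoli-like and interstitial-like cells both differences were within counting error at the settings used. The difference in the G2/M-high share was -2.28 points (-6.36 to 1.86). S-high were 336 of 841 Sertoli-like cells (39.95%, 36.6 to 43.4%), and the difference from interstitial-like cells was -3.21 points (-7.51 to 1.13). Other settings moved these calls both ways. The G2/M-high difference was -7.48 points (-11.7 to -3.16) with log-normalized counts and 22.7 (19 to 26.4) with clusters named from summed CPM, and the S-high difference was -7.08 (-11.5 to -2.59) with log-normalized counts, -4.05 (-7.69 to -0.326) with a limit of 8 genes and 13.0 (8.93 to 16.9) without thinning. S-high shares of germ-like and Sertoli-like cells differed by -3.37 points (-10.3 to 3.81), with 90 of 246 germ-like cells (36.6%, 30.6 to 42.9%) above the limit. The germ-like value moved with the limit too, to 9.41 points with 3 genes and to -9.66 with 8, and before thinning 96.8% of germ-like and 73.2% of Sertoli-like cells were S-high.

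The coelomic epithelium-like class, the surface layer of the testis, had the largest S-high share of the 6 classes, 86 of 149 cells (57.7%, 49.4 to 65.8%). Many of its cells stood at the limit, with 26.2% (19.3 to 34.0%) holding 4 or 5 S genes, against 15.3% (13.4 to 17.4%) of interstitial-like cells. Its median was 5 S genes against 4 in interstitial-like cells, but its 90th percentile was 10 against 11. Other limits were not tried for this class. Its G2/M-high share was 53.02% (44.7 to 61.2%). This interval lay above those of Sertoli-like, interstitial-like, PTM-like and Leydig-like cells and overlapped that of perivascular-like cells, at 47.1% (37.2 to 57.1%). PTM-like cells, the contractile cells around the cords, had 36.7% (32.5 to 41.1%) G2/M-high and 42.7% (38.3 to 47.1%) S-high cells. Of the smallest classes, 9 of 42 endothelial-like, 14 of 32 immune-like and 10 of 30 hemoglobin-rich cells were G2/M-high.

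Both limits together gave 4 states of a cell, whose shares are not independent of the G2/M-high share and its limit. Cells that were S-high alone were 2.44% (0.9 to 5.23%) of germ-like cells, against 19.3% (16.6 to 22.1%) of Sertoli-like, 23.7% (21.5 to 26.1%) of interstitial-like and 21.2% (17.7 to 25.1%) of PTM-like cells. G2/M-high cells without S made up 52.9% (46.4 to 59.2%) of germ-like cells and 10.8% (8.8 to 13.1%) of Sertoli-like cells. Cells below both limits were 79.3% (74.1 to 83.9%) of Leydig-like, 49.2% (45.8 to 52.7%) of Sertoli-like and 10.6% (7.02 to 15.1%) of germ-like cells.

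**Figure D2:**
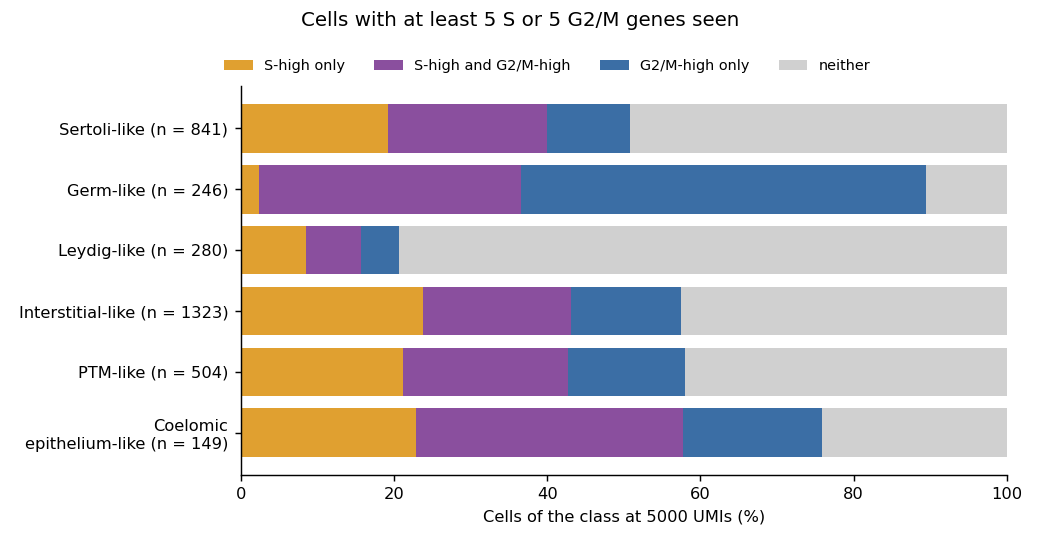
Share of cells of each class (x axis, %) that held at least 5 S genes alone, at least 5 of both kinds, at least 5 G2/M genes alone, or neither, at 5000 UMIs per cell. Germ-like cells were mostly G2/M-high with few cells S-high alone (2.44%), and 79.3% of Leydig-like cells were neither.

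Among genes of chromosome structure, *Mki67*, which coats mitotic chromosomes and is the usual mark of proliferating cells, was read at 199 CPM in coelomic epithelium-like, 195 in interstitial-like, 176 in PTM-like and 132 in Sertoli-like cells. In germ-like and Leydig-like cells it was far lower, at 36.6 CPM (32.7 to 40.9) and 32.5 CPM (27.8 to 37.8), whose intervals overlap. By cells at 5000 UMIs the gap was smaller. *Mki67* was seen in 22.1% (19.4 to 25.1%) of Sertoli-like, 15.04% (10.8 to 20.1%) of germ-like and 8.93% (5.86 to 12.9%) of Leydig-like cells. The germ-like interval overlaps both others. *Top2a*, the topoisomerase that untangles sister chromatids, was at 385 CPM in coelomic epithelium-like, 353 in PTM-like, 345 in interstitial-like and 243 in Sertoli-like cells, at 189 CPM (179.9 to 198) in germ-like and at 77.1 CPM (69.7 to 85.03) in Leydig-like cells. So germ-like cells, whose *Mki67* level was near the Leydig-like one, had more *Top2a* than Leydig-like cells, beyond the intervals.

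Cyclins and kinases did not follow each other in germ-like cells. *Cdk1*, the kinase that drives mitosis, was read at 57.4 CPM (52.5 to 62.6) in germ-like cells, with an interval that overlaps the Leydig-like one, at 64.03 CPM (57.3 to 71.3), and far below the 179 CPM of coelomic epithelium-like, 193 of PTM-like, 196 of interstitial-like and 242 of Sertoli-like cells. Its partner *Ccnb1* was the reverse, at 155 CPM (147 to 164) in germ-like cells, above the 92.5 CPM of coelomic epithelium-like, 86.01 of interstitial-like, 77.1 of PTM-like, 53.4 of Sertoli-like and 24.03 of Leydig-like cells. *Ccnb1* has processed copies in the mouse genome, so reads may have been split between them and its level is uncertain. *Ccnb2*, the second B-type cyclin, was at 118 CPM (111 to 126) in germ-like and 115 CPM (109.5 to 121) in interstitial-like cells, within each other's interval. *Ccna2*, the cyclin of S and G2, was at 40.9 CPM in germ-like and 84.3 CPM in interstitial-like cells. Both *Plk1*, the kinase that matures centrosomes, at 8.01 CPM (6.25 to 10.1), and *Aurkb*, the kinase of the chromosomal passenger complex, at 14.8 CPM (12.3 to 17.6), were at their lowest in germ-like cells, *Plk1* by less than its counting error against Leydig-like cells (8.07 CPM). *Aurka*, the spindle pole kinase, lay within the somatic range at 32.5 CPM.

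The spindle checkpoint was well read in germ-like cells. *Bub1*, a checkpoint kinase at unattached kinetochores, was at 103 CPM (96.8 to 110.4), against 37.3 CPM in coelomic epithelium-like, 34.4 in interstitial-like, 30.8 in PTM-like, 28.4 in Sertoli-like and 6.73 in Leydig-like cells. *Bub1b*, a member of the mitotic checkpoint complex, was at 57.5 CPM (52.5 to 62.7) with an interval that overlaps the coelomic epithelium-like one (58.6 CPM). *Cdc20*, the activator of the anaphase-promoting complex, was at 123 CPM (116 to 131) in germ-like and 113 CPM (107 to 118) in interstitial-like cells, and *Ube2c*, the ubiquitin-conjugating enzyme of that complex, was at 224 CPM (214 to 234) against 312 CPM (303 to 322).

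Of the centromere genes, *Cenpf* (gene at chr1:189640606-189688086, minus strand), a large kinetochore protein, had the largest ratio of germ-like over Sertoli-like level of the 43 genes. It was at 692 CPM (674 to 709.5) in germ-like cells, and at 232, 204, 190.5 and 176 CPM in coelomic epithelium-like, interstitial-like, PTM-like and Sertoli-like cells. The Leydig-like level was 42.1 CPM. At 5000 UMIs, 93.1% (89.2 to 95.9%) of germ-like cells and 25.3% (22.4 to 28.4%) of Sertoli-like cells held a *Cenpf* UMI, so it was read in nearly every germ-like cell and in a minority of Sertoli-like cells. *Cenpe*, a kinetochore motor, at 122 CPM, and *Cenpa*, the histone of centromeres, at 99.7 CPM, were within the somatic range. *Birc5*, a passenger protein like *Aurkb*, was at 83.9 CPM in germ-like cells and within counting error of its lowest somatic level, 71.5 CPM in Leydig-like cells.

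Spindle genes were mixed. *Kif20b*, a motor of late cytokinesis, *Ckap2*, a microtubule-binding protein, and *Tacc3*, which stabilizes spindle microtubules, stood at 84.5, 69.04 and 62.7 CPM in germ-like cells, against 60.01 CPM in Sertoli-like, 41.1 in interstitial-like and 57.3 in PTM-like cells, the highest somatic class for each, with overlapping intervals for *Tacc3*. *Kif23*, the motor of the midzone, was at 20.4 CPM (17.5 to 23.6) in germ-like and 84.2 CPM (79.2 to 89.3) in Sertoli-like cells. *Tpx2*, an activator of Aurora A, was at 39.7 and 129.6 CPM, and *Nusap1*, a microtubule bundler, at 31.7 and 75.5 CPM. *Hmmr* and *Kif11*, which act on the bipolar spindle, stayed within the somatic range at 73.6 and 41.9 CPM.

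Compared with all 5 somatic classes, 8 of 25 G2/M genes were above the whole somatic range in germ-like cells, 3 were below it and 14 were within it. Of the 18 S genes, 1 was above, 4 were below and 13 were within. Over the 10341 genes with a mean of at least 5 CPM, 30.6% were above and 36.5% below, so neither share of the 43 genes was larger than that of all genes.

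**Figure D3:**
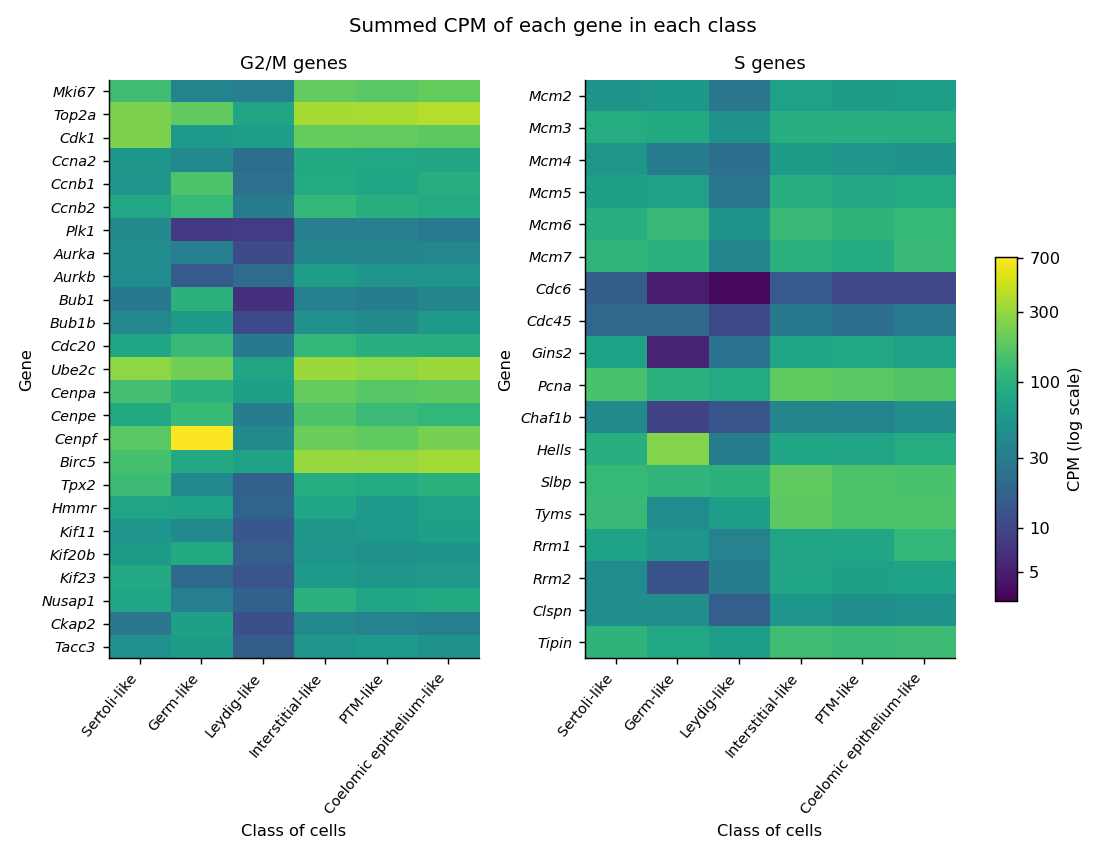
Summed CPM (colour, log scale) of the 25 G2/M genes (left) and the 18 S genes (right) in the 6 main classes. The Leydig-like column is the darkest, with 36 of 43 genes at their lowest level there (the share of all genes was not counted). The germ-like column holds both the highest *Cenpf* value (692 CPM) and the lowest *Gins2* value (5.38 CPM).

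Among the S genes, the 6 subunits of the MCM helicase, which opens DNA at origins, are given first. *Mcm2* was read at 51.5 CPM in Sertoli-like, 56.7 in germ-like, 70.5 in interstitial-like, 62.4 in PTM-like, 63.7 in coelomic epithelium-like and 26.9 in Leydig-like cells. *Mcm3* ran from 49.8 CPM in Leydig-like to 95.4 in interstitial-like cells, with 90.6 in Sertoli-like, 84.03 in germ-like, 93.3 in PTM-like and 91.5 in coelomic epithelium-like cells. *Mcm4* was at 31.3 CPM in germ-like and 23.3 in Leydig-like cells, and between 50.5 and 60.4 in the other classes. All the MCM genes were lowest in Leydig-like cells.

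The remaining MCM subunits gave the same picture. *Mcm5* was at 69.95 CPM in germ-like and 68.6 in Sertoli-like cells, within each other's interval, with 27.7 in Leydig-like and 82.95 to 94.6 in the 3 other classes. *Mcm6* was at 124 CPM in germ-like, 124 in interstitial-like, 119 in coelomic epithelium-like, 106 in PTM-like, 95.9 in Sertoli-like and 51.5 in Leydig-like cells. *Mcm7* ranged from 36.3 CPM in Leydig-like to 123 in coelomic epithelium-like cells, with 101 in germ-like, 109.5 in Sertoli-like, 98.04 in interstitial-like and 87.6 in PTM-like cells. Germ-like cells thus had message levels within the range of the other classes for all 6 subunits. For *Mcm4*, only the Leydig-like level was lower than the germ-like one.

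Genes that load or fire origins differed from each other in germ-like cells. *Gins2* (gene at chr8:120578633-120589304, minus strand), a subunit of the GINS complex that joins the helicase at firing, was at 5.38 CPM (3.95 to 7.16) in germ-like cells, from 47 UMIs, against 24.8 CPM in Leydig-like and 69.5 to 80.8 CPM in the other somatic classes. *Cdc6*, the loader of the helicase, was at 4.81 CPM (3.47 to 6.5) in germ-like and 3.65 CPM (2.2 to 5.71) in Leydig-like cells, with overlapping intervals, and at 15.7 CPM in Sertoli-like cells. *Cdc45*, which fires origins together with GINS, was not low: germ-like cells had 20.7 CPM (17.8 to 23.97) and Sertoli-like cells 19.2 CPM (16.9 to 21.8).

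*Pcna*, the sliding clamp of the polymerase, was at 190.3 CPM in interstitial-like, 177 in PTM-like, 162 in coelomic epithelium-like and 149 in Sertoli-like cells, and at 101 CPM (94.4 to 108) in germ-like and 85.6 CPM (77.8 to 93.9) in Leydig-like cells. *Chaf1b*, which loads histones on new DNA, was at 9.27 CPM (7.37 to 11.5) in germ-like cells, with an interval that overlaps the Leydig-like one, at 13.5 CPM (10.5 to 17), and at 36.3 to 47.1 CPM in the 4 other classes. *Hells* (gene at chr19:38930915-38971051, plus strand), a chromatin remodeler needed for DNA methylation, was the only S gene above the somatic range, at 261 CPM (250.2 to 272) in germ-like and 96.2 CPM (90.9 to 102) in Sertoli-like cells, and was seen in 66.7% (60.4 to 72.5%) and 31.9% (28.7 to 35.1%) of cells. *Slbp*, which binds histone messages, was at 112 CPM in germ-like and 187 CPM in interstitial-like cells.

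For nucleotide supply, *Tyms*, which makes thymidylate, was at 43.6 CPM (39.4 to 48.2) in germ-like, 64.8 CPM (58.1 to 72.1) in Leydig-like and 124 to 179 CPM in the other classes. *Rrm2*, the regulated subunit of ribonucleotide reductase, was at 12.6 CPM (10.3 to 15.2) in germ-like and 30.96 CPM (26.4 to 36.1) in Leydig-like cells, while *Rrm1*, its stable subunit, was at 54.6 and 35.2 CPM. The fork checkpoint genes *Clspn* and *Tipin* were at 46.02 and 81.3 CPM in germ-like cells, within the somatic range.

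Germ-like cells were set against Sertoli-like cells because both lie inside the cords. With 5 CPM added to both levels, 12 of the 43 genes were at least 2-fold lower in germ-like cells and 5 were at least 2-fold higher, beside 24.7% lower and 13.7% higher of the 9980 genes that passed the low-value filter, as all 43 did. The share lower, 12 of 43, was near that of all genes. The genes with the largest ratios downwards were *Gins2* (log2 ratio -2.92), *Cdk1* (-1.98), *Kif23* (-1.81), *Plk1* (-1.79) and *Chaf1b* (-1.72), closely followed by *Mki67* (-1.72). Upwards they were *Cenpf* (1.95), *Bub1* (1.70), *Ccnb1* (1.46), *Hells* (1.39) and *Ckap2* (1.22). The median log2 ratio was -0.34 for the 43 genes and -0.17 for all genes, which lay close together. Germ-like cells with at most 36000 UMIs, taken alone, gave 11 lower and 5 higher genes. The shares of all genes for that choice of cells are not given here.

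**Figure D4:**
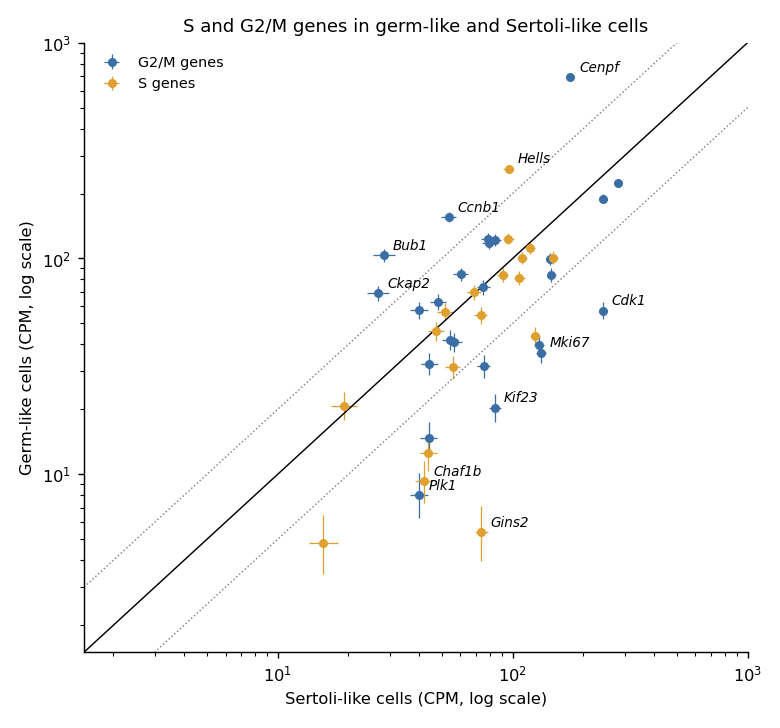
Summed CPM of each gene in Sertoli-like (x axis) and germ-like cells (y axis), both on log scales, with bars for the exact Poisson 95% interval. The solid line marks equal levels and the dotted lines 2-fold without added CPM. *Cenpf*, *Hells*, *Bub1*, *Ccnb1* and *Ckap2* lie above the upper line, and *Gins2*, *Plk1*, *Chaf1b*, *Kif23*, *Cdk1* and *Mki67* below the lower one.

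In Leydig-like cells, 40 of the 43 genes were at least 2-fold lower than in interstitial-like cells and none was 2-fold higher, beside 11.8% and 7.9% of all 9952 genes tested. The largest ratios were those of *Mki67* (32.5 against 195 CPM, log2 ratio -2.41), *Nusap1* (-2.26), *Cenpe* (-2.19), *Cenpf* (-2.15) and *Tpx2* (-2.12). The smallest were those of *Slbp* (102 against 187 CPM, -0.84), *Mcm3* (-0.87), *Rrm1* (-0.99), *Tipin* (-1.01) and *Pcna* (-1.11). The median was -1.74 for the G2/M genes and -1.2 for the S genes, against -0.15 for all genes. Of the 43 genes, 36 were lowest in Leydig-like cells of the 6 classes, and the other 7 were lowest in germ-like cells. Of 10341 genes, 36.5% were lowest in germ-like cells, and the share lowest in Leydig-like cells was not counted. The call rests on dividing interstitial cells keeping their name: with clusters named from summed marker CPM, both dividing interstitial-like clusters lost it and 9 genes were lower and 2 higher. The shares of all genes under that naming are not given here.

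Of the 280 Leydig-like cells, 20 held 10 or more G2/M genes, and *Mki67* was seen in 16 of 20 (80.0%, 56.3 to 94.3%). In Sertoli-like cells of that kind it was seen in 160 of 204 (78.4%, 72.2 to 83.9%). *Mki67* is itself among the G2/M genes counted, so these shares are raised by the choice of cells. S genes were spread more widely, with 51 of 280 Leydig-like cells (18.2%, 13.9 to 23.2%) holding none and *Slbp* seen in 33.6%, *Pcna* in 28.2% and *Tipin* in 24.3% of Leydig-like cells.

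Few of the 43 genes were past 2-fold between Sertoli-like and interstitial-like cells. *Birc5* alone was at least 2-fold lower in Sertoli-like cells, at 146 CPM (139.5 to 153) against 307 CPM (298 to 317), a log2 ratio of -1.05, and none was 2-fold higher, beside 10.5% lower and 11.6% higher of 10247 genes. Next in that direction were *Cenpe* (-0.87), *Rrm2* (-0.74), *Ccnb1* (-0.64) and *Slbp* (-0.64). In the other direction were *Tpx2* (129.6 against 90.3 CPM, 0.50), *Kif23* (0.46), *Hells* (0.33), *Cdk1* (0.30) and *Plk1* (0.30). Differences under 2-fold could still lie beyond the intervals. *Mki67* was at 132 CPM (125.5 to 138) in Sertoli-like and 195 CPM (187 to 202) in interstitial-like cells. *Cdk1*, the other way, was at 242 CPM (233 to 250) and 196 CPM (188.5 to 203). The median log2 ratio was -0.24 for the 43 genes and 0.03 for all genes. No gene was past 2-fold lower when the doublet rate was doubled or cell cycle scores were regressed out. With clusters named from summed marker CPM, which left the dividing interstitial-like clusters unnamed, 25 genes were at least 2-fold higher in Sertoli-like cells. Shares of all genes under these other settings are not given here.

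PTM-like and coelomic epithelium-like cells were nearer still to interstitial-like cells, with no gene of the 43 past 2-fold in either direction, beside 2.74% lower and 1.97% higher of all genes for PTM-like and 4.35% and 4.98% for coelomic epithelium-like cells. The farthest were *Rrm1* (log2 ratio 0.57) and *Cenpe* (-0.46) in coelomic epithelium-like cells and *Cdc6* (-0.40) and *Plk1* (0.07) in PTM-like cells. Next in coelomic epithelium-like cells were *Mcm7* (0.31), *Chaf1b* (0.30), *Bub1b* (0.27) and *Kif11* (0.26) upwards and *Cdc6* (-0.40), *Ccnb2* (-0.37), *Slbp* (-0.32) and *Cdc20* (-0.285) downwards. In PTM-like cells they were *Tacc3* (0.06), *Gins2* (0.06), *Kif11* (0.04) and *Top2a* (0.03) upwards and *Nusap1* (-0.36), *Hmmr* (-0.34), *Cenpe* (-0.30) and *Ccnb2* (-0.29) downwards.

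In germ-like against interstitial-like cells, 13 of the 43 genes were at least 2-fold lower and 3 at least 2-fold higher, beside 25% lower and 15.6% higher of 10116 genes. This comparison shares the germ-like cells with the one against Sertoli-like cells. Downwards were *Gins2* (-2.99), *Mki67* (-2.26), *Rrm2* (-2.21), *Tyms* (-1.92) and *Aurkb* (-1.82), and upwards *Cenpf* (1.74), *Hells* (1.72), *Bub1* (1.46), *Ccnb1* (0.82) and *Ckap2* (0.68), of which the last 2 were under 2-fold.

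Germ-like cells parted into a pair of clusters when the clustering was made finer (resolution 1.2), a split looked at after the data were seen. They differed in *Piwil4*, a gene of the piRNA pathway known from arrested fetal germ cells. One, of 156 cells with a median of 33515 UMIs, had 18.4 CPM (14.9 to 22.6), and the other, of 96 cells with a median of 39643 UMIs, had 78.2 CPM (69.5 to 87.7). *Nanos2*, which the paper describes as inducing quiescence, differed by less than 2-fold, at 56.5 CPM (50.1 to 63.5) and 76.1 CPM (67.5 to 85.4). None of the 43 genes was among those that built the clusters, but unlisted genes that vary with them were not taken out. In the main clustering, 1 Sertoli-like cluster (99.4%) and 2 interstitial-like clusters (99.56% and 93.84%) were still almost wholly G2/M-high. The part of such genes in the germ-like split was not tested, so differences in the 43 genes may not be independent of it.

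In the cluster with more *Piwil4*, 10 of the 42 genes tested (*Cdc6* was below the low-value filter) were at least 2-fold lower and none was higher, beside 2.14% lower and 2.31% higher of all 8955 genes. *Mki67* was at 59.4 CPM (52.8 to 66.5) against 6.41 CPM (4.1 to 9.53) in the clusters with less and more *Piwil4*. *Ube2c* was at 318 CPM (302 to 334) against 99.8 CPM (89.96 to 110.5), *Rrm2* at 19.6 CPM (15.9 to 23.9) against 3.2 CPM (1.66 to 5.59) and *Ccnb2* at 163 CPM (152 to 175) against 57.6 CPM (50.2 to 65.9). *Nusap1*, *Slbp*, *Hells*, *Mcm2*, *Cenpa* and *Tyms* were the other 6. *Hells*, high in germ-like cells as a whole, was at 347 CPM (331 to 364) against 146 CPM (134 to 158). *Pcna* fell short of the limit, at 126 CPM (117 to 137) against 67.3 CPM (59.2 to 76.1).

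The genes that were high in germ-like cells did not all follow. *Cenpf* was at 686 CPM (664 to 709.7) against 699 CPM (673 to 726) and *Bub1* at 99.7 CPM (91.1 to 109) against 108 CPM (98.1 to 119), with overlapping intervals, as were *Ckap2* and *Tacc3*. *Cenpe* was higher beyond the intervals in the cluster with more *Piwil4*, at 98.04 CPM (89.5 to 107) against 154 CPM (141 to 166). Cells with 10 or more G2/M genes were 42 of 150 (28%, 20.98 to 35.9%) and 6 of 96 (6.25%, 2.33 to 13.1%), and S-high cells 73 of 150 (48.7%, 40.4 to 57.0%) and 17 of 96 (17.7%, 10.7 to 26.8%). G2/M-high shares, 88% and 85.4%, differed by less than their intervals. Hemoglobin messages took 0.0192% and 0.0533% of the UMIs of the 2 clusters, and their part in the difference was not tested.

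**Figure D5:**
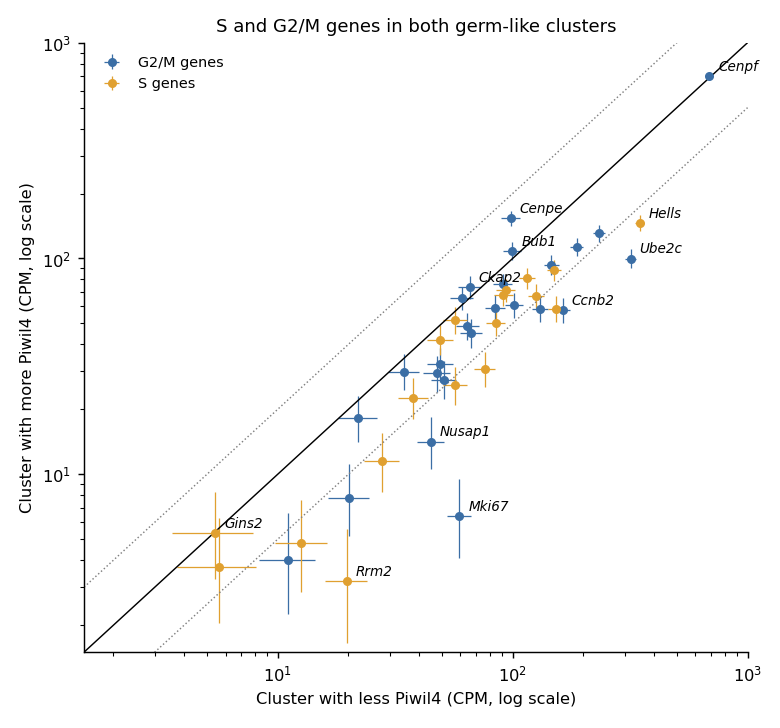
Summed CPM of each gene in the germ-like cluster with less *Piwil4* (x axis, 156 cells) and in the one with more (y axis, 96 cells), on log scales, with exact Poisson 95% intervals. The solid line marks equal levels and the dotted lines 2-fold. *Cenpf*, *Bub1*, *Ckap2* and *Tacc3* lie near the solid line and *Cenpe* above it, and *Mki67* and *Rrm2* lie farthest below.

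The 48 germ-like cells with 10 or more G2/M genes also held more S genes, with a median of 6 against 3 in the other germ-like cells, at median depths of 35594 and 36282 UMIs. In Sertoli-like and in interstitial-like cells the medians were 5 and 3. They were 5 and 1.5 in Leydig-like, 5 and 4 in PTM-like and 5 and 5 in coelomic epithelium-like cells. Of germ-like cells with 10 or more G2/M genes, *Mki67* was seen in 28 of 48 (58.3%, 43.2 to 72.4%), against 284 of 318 (89.3%, 85.4 to 92.5%) interstitial-like cells with as many. Since *Mki67* is among the genes counted, both shares are raised by the choice of cells.

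Over cells of 1 class at 5000 UMIs, G2/M genes were seen together. The mean Pearson r over pairs of G2/M genes (log of count plus 1) was 0.426 in 841 Sertoli-like and 0.494 in 1323 interstitial-like cells, and 0.0907 in 246 germ-like cells. Pairs of S genes had means of 0.198, 0.241 and 0.0903. Pairs of 1 G2/M and 1 S gene had means of 0.0665 and 0.0228 in Sertoli-like and interstitial-like cells. All these cells share 1 library, and r fell with depth (0.316 and 0.392 for G2/M pairs at 3000 UMIs). *Ube2c* had the highest mean r with the other G2/M genes in Sertoli-like (0.564) and interstitial-like cells (0.608), and *Bub1* the lowest (0.285 and 0.385). Among S genes *Pcna* was highest in both (0.270 and 0.327), and *Cdc45* (0.121) and *Cdc6* (0.177) were lowest.

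Of the 8099 (Sertoli-like) and 8120 (interstitial-like) genes compared outside the 43, those that tracked the summed G2/M genes best in Sertoli-like cells were *Prc1* (r = 0.733), *Hmgb2* (0.724), *Cks2* (0.716), *Cdca8* (0.703) and *H2az1* (0.692). In interstitial-like cells they were *Hmgb2* (0.839), *H2ax* (0.815), *Cks2* (0.791), *H2az1* (0.766) and *Cdca8* (0.734). For the S genes they were *Pclaf* (0.560), *Gmnn* (0.550), *Atad2* (0.540), *H2az1* (0.515) and *Dut* (0.472) in Sertoli-like cells, and *Pclaf* (0.568), *Lig1* (0.539), *Gmnn* (0.511), *Nasp* (0.511) and *Dek* (0.50) in interstitial-like cells.

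Since these genes were seen together in cells, their promoters were read for the letters that the 2 programs are known for. Windows of 250 bases before and 50 after the start (RefSeq, GRCm38.p6) were at hand for 22 of 25 G2/M and 15 of 18 S genes. The cell cycle homology region (CHR, TTTGAA on either strand) was in 16 of 22 G2/M windows (72.7%), 2 of 15 S windows (13.3%) and 18.1% of all 27025 gene windows. CCAAT, the letters bound by NF-Y, was in 81.8%, 73.3% and 37.9% on either strand, and CHR with CCAAT in 68.2%, 13.3% and 7.12%. E2F letters (TTCCCGC and the related forms TTGGCGC as well as TTCGCGC and finally TTGCCGC, on either strand) were in 22.7%, 66.7% and 9.69%. Matches may share bases, since CCAAT read on the other strand ends in letters with which an E2F form begins.

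Shown here are the 250 bases before the start of *Cenpf*, high in germ-like cells, of *Mki67* and *Plk1*, low in them, and of *Mcm3*, even among the classes other than Leydig-like cells. Capitals mark CHR, CCAAT and E2F letters, in the direction of the gene.
Cenpf promoter, chr1:189688087-189688336, minus strand: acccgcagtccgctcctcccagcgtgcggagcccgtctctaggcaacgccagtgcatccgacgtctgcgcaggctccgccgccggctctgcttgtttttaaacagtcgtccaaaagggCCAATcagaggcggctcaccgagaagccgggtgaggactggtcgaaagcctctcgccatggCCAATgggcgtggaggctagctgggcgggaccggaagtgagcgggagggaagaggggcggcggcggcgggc
Mki67 promoter, chr7:135716380-135716629, minus strand: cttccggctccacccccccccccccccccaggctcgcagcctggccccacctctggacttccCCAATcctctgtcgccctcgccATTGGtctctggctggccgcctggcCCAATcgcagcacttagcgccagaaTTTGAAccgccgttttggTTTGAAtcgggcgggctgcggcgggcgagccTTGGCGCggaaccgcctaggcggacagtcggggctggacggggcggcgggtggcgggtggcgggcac
Plk1 promoter, chr7:122159185-122159434, plus strand: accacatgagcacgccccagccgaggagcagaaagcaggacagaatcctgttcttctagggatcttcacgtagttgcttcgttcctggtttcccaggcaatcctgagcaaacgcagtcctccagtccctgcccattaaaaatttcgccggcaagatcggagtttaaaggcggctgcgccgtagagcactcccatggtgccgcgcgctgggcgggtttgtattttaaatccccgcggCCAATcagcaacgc
Mcm3 promoter, chr1:20820313-20820562, minus strand: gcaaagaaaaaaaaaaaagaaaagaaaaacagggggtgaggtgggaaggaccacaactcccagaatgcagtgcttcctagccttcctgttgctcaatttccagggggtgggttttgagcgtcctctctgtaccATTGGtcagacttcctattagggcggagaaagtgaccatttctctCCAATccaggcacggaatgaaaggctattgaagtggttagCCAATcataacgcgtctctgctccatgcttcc
*Mki67* held 2 CHR, 3 CCAAT and 1 E2F match in this stretch, *Cenpf* 2 CCAAT, *Plk1* 1 and *Mcm3* 3, while the CHR of *Cenpf* and *Plk1* and the E2F letters of *Mcm3* lie in the 50 bases after the start, not shown. *Cenpf* and *Mki67*, with opposite ratios between germ-like and Sertoli-like cells, thus both hold CHR and CCAAT letters. A match of letters is not a bound site.

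Other cell cycle genes, listed by their known phase, followed the same lines. Of 57 further G2/M genes tested, 45 were at least 2-fold lower in Leydig-like than in interstitial-like cells, and of 62 further S genes 42 were, with none higher (11.8% and 7.9% of all genes). Lowest were *Psrc1* (log2 ratio -2.10), *Hmgb2* (-2.09) and *Sgo2a* (-2.01) of the G2/M list and *Pclaf* (-1.99), *Uhrf1* (-1.88) and *Cdca7* (-1.76) of the S list. At the other end of the G2/M list was *Kif2c* (0.18).

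In germ-like against Sertoli-like cells, 9 of 57 further G2/M genes were lower and 4 higher, and 9 of 61 further S genes were lower and 8 higher (24.7% and 13.7% of all genes). *Pclaf*, the PCNA-associated factor, was at 7.1 CPM (5.44 to 9.1) against 140.1 CPM (134 to 147), and *Tk1*, thymidine kinase, at 4.46 CPM (3.17 to 6.1) against 45.7 CPM (42.05 to 49.5). *Psrc1* (-2.22), *Jpt1* (-1.77), *H2az1* (-1.68) and *Uhrf1* (-1.51) were lower too. Higher were the ubiquitin ligase *G2e3* (132 against 29.9 CPM, 1.97), the separase *Espl1* (1.26) and *Lbr* (1.2), and on the S list *Mcm8* (1.35) and *Rfc4* (1.2).

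Of the genes that turn the program on or off, *Mybl2*, which activates G2/M genes, was at 48.7 CPM (44.1 to 53.5) in germ-like and 9.35 CPM (7.75 to 11.2) in Sertoli-like cells, and it fell from 65.0 CPM (58.1 to 72.4) in the germ-like cluster with less *Piwil4* to 27.0 CPM (22.0 to 32.8) in the other. *Rb1*, which restrains E2F, was at 28.6 CPM (25.2 to 32.4) in germ-like and 9.66 CPM (8.04 to 11.5) in Sertoli-like cells. *Mybl1* was at 39.9 CPM (36.5 to 43.5) in Sertoli-like, 11.6 CPM in germ-like and 2.81 CPM in interstitial-like cells. *Foxm1*, the activator of mitotic genes, was at 3.46 CPM (2.05 to 5.47) in Leydig-like and 18.6 CPM (16.4 to 21) in interstitial-like cells. The list was mixed. Against Sertoli-like cells, 4 of 19 genes were lower in germ-like cells, *Rbbp4* (83.3 against 263 CPM) and *Rbl2* (2.06 against 12.9 CPM) among them, and 2 higher (24.7% and 13.7% of all genes). Against interstitial-like cells, 3 of 18 were lower in Leydig-like cells and 2 higher, *Myc* (14.04 against 4.11 CPM) and *Lin37* (41.7 against 17.9 CPM) (11.8% and 7.9% of all genes).

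Genes of the G1 decision were read in the same classes. *Cdkn1c*, an inhibitor of cyclin-dependent kinases, was at 2055 CPM (2016 to 2094) in Leydig-like and 118 CPM (112 to 124) in interstitial-like cells, a log2 ratio of 4.07, and was seen in 86.8% (82.2 to 90.5%) of Leydig-like cells at 5000 UMIs. Its level was 363 CPM in coelomic epithelium-like, 184.5 in PTM-like and 117.6 in Sertoli-like cells. *Cdkn2a* was at 70.9 CPM (65.4 to 76.7) in germ-like and 0.546 CPM (0.219 to 1.12) in Sertoli-like cells. *Ccnd2*, a D-type cyclin of G1, was at 392 CPM (381 to 403) in Sertoli-like, 155 CPM (148 to 162) in interstitial-like and 12.1 CPM (9.94 to 14.7) in germ-like cells, while *Ccnd3* was at 83.01, 237 and 43.7 CPM.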

How the data were processed

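Counts came from the deposited 10x matrix of 1 control library. According to the file header and the submitters' processing notes, the authors made these counts of UMIs per gene with Cell Ranger (3.0.2 and 3.1.0 are both named, and the study's methods name a later version) on mm10 with a YFP sequence added. Cell Ranger merges reads that share a UMI, and the counts were not normalized. Barcodes with under 200 genes (372), predicted doublets (204, from simulated doublets at a rate of 0.8% per 1000 barcodes) and cells beyond 3 median absolute deviations (1032) were removed, which left 3813 cells and 54540639 UMIs. Cells were normalized with SCTransform 0.4.2 and clustered in Seurat 5.3.0 (R 4.3.3; 3000 variable genes without cell cycle genes, 30 components, resolution 0.8). Clusters were named from marker lists, by the shares of cells with each marker, a rule set after the clusters had been seen.

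Levels were a gene's UMIs per 1000000 UMIs of a class (CPM). Ratios were taken after adding 5 CPM, over genes with a mean of at least 5 CPM, and a 2-fold ratio was counted as lower or higher. Adding 5 CPM understates ratios of low genes. Per-cell counts of genes used cells thinned at random to 5000 UMIs. Intervals of a level are exact Poisson and of a share exact Clopper-Pearson at 95%, and the interval of a difference combines the distances to the bounds of both shares. All cover counting error only, and cells of 1 pool of fetuses are not replicates, so no test was made. Python 3.11.15, numpy 2.4.6, scipy 1.17.1 and pandas 2.3.3 were used. The counting of genes per cell and the ratios were also run on simulated data. For the counting, all G2/M genes were set high in some cells and low in the rest, at interstitial-like depth. Cells with intermediate levels, as among germ-like cells, were not simulated, so that run does not bear on them. Alternatives changed the filters, doublet removal, resolution, normalization, classing, thinning, limits, added CPM and fold.

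The 43 genes and all lists were chosen with earlier results of these data known. Named with values were the 5 genes with the largest ratio in each direction per comparison, *Mki67*, *Top2a*, *Cdk1*, *Ccnb1*, *Pcna* and the MCM genes in every class, the genes with the highest and lowest mean correlation, the 5 best-correlated other genes, and genes from among the 3 in each direction of the other lists, not all of them (1 is not reported here). Further genes, the germ-like clusters and the printed promoters were chosen after their values were seen. Promoters of *Ccna2*, *Mcm4*, *Aurkb*, *Tipin*, *Tpx2* and *Gins2* were not analysed here.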

Additional observations from a re-analysis of the deposited data

Results flagged for a closer look

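Cell cycle messages also appeared in barcodes that the comparisons left out. In the 372 barcodes with under 200 genes, G2/M genes took 112.1 UMIs per 1000000 (95.27 to 131.0) and S genes 32.63 (23.89 to 43.52), against 2576 and 1393 in the kept cells. None of the 106 of these barcodes with 5000 UMIs was G2/M-high or S-high. Of the 447 cells removed as outliers that reached 5000 UMIs, 21.48% were G2/M-high and 16.78% S-high, against 36.46% and 39.75% of kept cells. The 202 barcodes removed as doublets that reached that depth lay above kept cells, with 52.48% G2/M-high and 48.51% S-high. No control library bears on these values.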

How the results depend on the processing

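No paired analysis was possible because there was 1 sample. Of the alternatives run on shares, counts and correlations, 125 stayed within the interval of the value reported (or, for a count of genes, within 1.5 times). Beyond it, 29 moved and 2 changed sign from a reported value whose interval left out equal shares. Both of these 2 had an interval that spans equal shares. Sign changes from a reported value whose own interval spans equal shares were not counted among the 2. The difference in G2/M-high share between germ-like and Sertoli-like cells was 24.4 points at 3000 UMIs, 11.9 with a limit of 8 genes and -4.74 (-10.4 to 1.47) with 10. Between Sertoli-like and interstitial-like cells it was -7.48 with log-normalized counts, 22.7 with clusters named from summed CPM and 3.59 without thinning, and between Leydig-like and interstitial-like cells -28.0 with log-normalized counts and 3.3 with clusters named from summed CPM. For S-high shares, germ-like minus Sertoli-like was 23.6 without thinning and 9.41 with a limit of 3. Sertoli-like minus interstitial-like was 3.67 with cells classed from their own markers, 2.69 with summed CPM naming and 13.0 without thinning. Leydig-like minus interstitial-like was -21.5 with summed CPM naming, -19.9 at 3000 UMIs, -8.65 without thinning, and -32.8, -15.8 and -10.8 with limits of 3, 8 and 10. Genes at least 2-fold lower in Leydig-like than interstitial-like cells numbered 9 with summed CPM naming. In Sertoli-like against interstitial-like cells they numbered 0 with the doublet rate doubled, with cell cycle scores regressed out, with summed CPM naming and with 20 CPM added, 2 with log-normalized counts and with own-marker classing, and 5 at 1.5-fold. Shares of all genes beside these counts are not given here. Mean r at 3000 UMIs was 0.316 (G2/M) and 0.129 (S) in Sertoli-like and 0.392 and 0.163 in interstitial-like cells. Naming from summed CPM left the dividing interstitial-like clusters, of 231 and 156 cells, unnamed, and under it the log2 ratios of single genes changed sign. Against interstitial-like cells these were *Mki67* (0.15), *Nusap1* (0.66), *Cenpf* (0.42) and *Tpx2* (0.34) in Leydig-like cells and *Birc5* (1.23), *Cenpe* (1.02), *Rrm2* (0.13) and *Ccnb1* (2.01) in Sertoli-like cells. The cause of the other moves was not tested. With 1 library, depth limits counting error only, and variation between fetuses is unknown.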
